A study of Mus musculus with 4 samples.

Results

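H3K9me3, the trimethylation of lysine 9 on histone H3 found on silenced chromatin, was mapped in cultured mouse muscle stem cells with and without induced deletion of Setdb1, and the regions described here are those most densely covered by the mark in the control culture. The 17 autosomes other than chromosomes 6 and 14 were divided into full bins of 100 kb, and a bin was taken where peaks of the control list covered 25% or more of its bases. This gave 1319 of 21874 bins (6.03%), out of 27247 full bins on chromosomes 1 to 19, X and Y. Control coverage chose the bins, so it is given as a description.

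The cells were a primary line of muscle stem cells with loxP-flanked Setdb1 alleles and a tamoxifen-inducible Cre recombinase under the muscle stem cell gene Pax7 (Setdb1lox/lox;Pax7GakaCreERT2 in the labels, where the number after CreERT differs between samples). One culture received 4-hydroxytamoxifen (4-OHT), which activates the recombinase, and the other received ethanol, for 72 h. The ethanol culture carried the same loxP alleles and Cre and is not wild type. The mark was measured by native chromatin immunoprecipitation and sequencing with 1 library per condition. Differences between the 2 lists therefore lack replication, and no test was made. Cells in which the Pax7-driven Cre was not active would be part of the 4-OHT library, and a mark lost in some cells and a weaker mark in all cells cannot be told apart in bulk.

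SETDB1 is a methyltransferase that adds methyl groups to lysine 9 of histone H3, mostly where KRAB zinc finger proteins and their partner TRIM28 bring it to DNA, as at endogenous retroviruses. Other methyltransferases, SUV39H1 and SUV39H2, write the same mark, above all in heterochromatin near centromeres. Broad domains of H3K9me3 are known over clusters of tissue-restricted genes and over gene-poor DNA, where the mark keeps chromatin compact.

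The 6 promoters below lie in heavily covered bins and show the contrast that the promoter data turn on, since 4 were wholly under a peak in both lists and the others, richer in CG dinucleotides, had little or no peak. They were chosen after their values were seen. The 4 are not typical, since 71 of 630 promoter windows in the bins had even 1 base under a peak in both lists. Each run is the 250 bases before a start site, 5′ to 3′ on the strand of the gene, from RefSeq (GRCm38.p6), with every CG in capitals.

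Zfp982 inner: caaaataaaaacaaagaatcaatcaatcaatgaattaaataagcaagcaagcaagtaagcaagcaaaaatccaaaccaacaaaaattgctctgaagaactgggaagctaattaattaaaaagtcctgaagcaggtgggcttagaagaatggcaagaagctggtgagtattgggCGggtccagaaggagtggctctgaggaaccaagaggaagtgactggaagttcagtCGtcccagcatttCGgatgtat
Zfp982 outer: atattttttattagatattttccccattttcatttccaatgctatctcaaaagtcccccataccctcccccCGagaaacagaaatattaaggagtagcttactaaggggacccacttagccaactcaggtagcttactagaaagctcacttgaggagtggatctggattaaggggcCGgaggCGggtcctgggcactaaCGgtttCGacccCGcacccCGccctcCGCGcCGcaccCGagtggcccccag
Chil3: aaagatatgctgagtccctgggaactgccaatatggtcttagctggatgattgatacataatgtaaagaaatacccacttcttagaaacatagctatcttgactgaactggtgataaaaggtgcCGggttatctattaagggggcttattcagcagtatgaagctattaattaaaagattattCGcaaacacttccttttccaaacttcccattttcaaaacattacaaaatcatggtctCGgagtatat
Skint11: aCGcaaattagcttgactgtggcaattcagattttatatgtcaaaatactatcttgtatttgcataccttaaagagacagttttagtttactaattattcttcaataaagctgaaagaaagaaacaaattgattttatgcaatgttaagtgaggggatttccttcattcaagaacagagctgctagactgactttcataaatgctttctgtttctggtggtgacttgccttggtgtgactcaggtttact
Vmn2r11: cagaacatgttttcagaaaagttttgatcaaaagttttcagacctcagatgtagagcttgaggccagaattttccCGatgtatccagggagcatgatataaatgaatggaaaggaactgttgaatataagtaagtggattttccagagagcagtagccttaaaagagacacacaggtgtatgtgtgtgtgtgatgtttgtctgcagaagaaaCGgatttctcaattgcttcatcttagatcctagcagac
Gabra2: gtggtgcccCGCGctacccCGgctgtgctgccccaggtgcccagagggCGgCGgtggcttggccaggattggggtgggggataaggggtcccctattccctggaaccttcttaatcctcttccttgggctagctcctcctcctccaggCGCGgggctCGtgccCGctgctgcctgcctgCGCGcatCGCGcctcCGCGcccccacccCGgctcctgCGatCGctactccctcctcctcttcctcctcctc

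Zfp982, a zinc finger gene, has both of its sequences in the single most heavily covered bin, chr4:147400001-147500000. The inner one (chr4:147492167-147492416, plus strand, 3 CG) was 100% under a peak in the 4-OHT list and 100% in the ethanol list. The outer one (chr4:147442864-147443113, plus strand, 11 CG) was 8.8% covered in the 4-OHT list and 0% in the ethanol list. Chil3 encodes a chitinase-like protein (chr3:106167565-106167814, minus strand, 3 CG). Skint11 belongs to the Skint family, whose founder Skint1 guides the development of skin gamma delta T cells (chr4:114163134-114163383, plus strand, 1 CG). Vmn2r11 encodes a pheromone receptor (chr5:109059453-109059702, minus strand, 2 CG). These 3 sequences were 100% covered in both lists. Gabra2 encodes a subunit of the GABA-A receptor (chr5:71095850-71096099, minus strand, 18 CG), and its sequence was at 0% in both lists.

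The heavily covered bins were far more covered than the average bin in the 4-OHT list too. They were covered at 29.1% on average in the 4-OHT list and 31.8% in the ethanol list, and their medians were 28.0% with 4-OHT and 30.3% with ethanol. Single bins spanned 9.27% to 80.4% in the 4-OHT list and 25.004% to 73.8% in the ethanol list. Over all 21874 bins the means were 5.54% with 4-OHT and 5.28% with ethanol, and the medians 1.53% with 4-OHT and 1.40% with ethanol. Of the 1319 bins, 893 were also at 25% or more in the 4-OHT list (67.7%, Wilson 95% interval 65.1 to 70.2%, for counting error only, since neighbouring bins are not independent). In the 4-OHT list 6.19% of all bins reached that level.

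Coverage was lower in the 4-OHT list in 867 of the 1319 bins and higher in 452, with a mean difference of -2.68 percentage points (SD over bins 7.09). Over all bins 37% were lower and 43.1% higher, and 4346 of 21874 were equal, against 0 of the 1319. The rule fixed the ethanol side, so nothing is read from the sign, and the mirror choice gave a difference of similar size the other way. The 1353 bins at 25% or more in the 4-OHT list were covered at 31.8% there and 28.7% in the ethanol list, a mean difference of 3.10 points. The 2 choices shared 893 bins, which were 67.7% of the bins of the ethanol list and 66.0% of those of the 4-OHT list. For the 1344 bins whose mean over both lists was 25% or more, a choice made after seeing the data, the means were 31.0% in both lists and the difference was -0.0263 points. Larger differences were found both ways. A fall of 10 points or more was counted in 191 of the 1319 bins (14.5%, all bins 1.12%) and a rise of that size in 50 (3.79%, all bins 1.66%). These counts share the ethanol side with the rule as well.

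**Figure D1:**
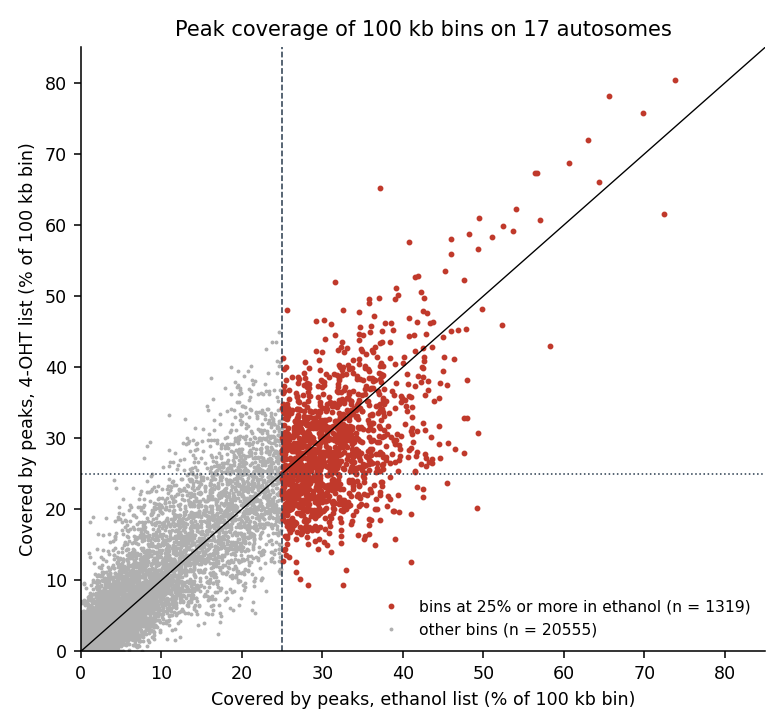
Share of each 100 kb bin covered by H3K9me3 peaks in the ethanol list (horizontal axis, %) and the 4-OHT list (vertical axis, %), 1 point per bin, with the line of equal coverage and dashed and dotted lines at 25%. The 1319 bins taken on the ethanol list (red) lie on both sides of the line, 867 below it and 452 above, and the bins of highest coverage lie mostly above it.

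The threshold cut through a continuous range. There were 139 bins between 25% and 26% in the ethanol list and 141 between 24% and 25%. The 3 bins just inside held 25.1%, 24.25% and 21.9% in the 4-OHT list and 25.004%, 25.024% and 25.025% in the ethanol list. The 3 just outside held 19.2%, 24.3% and 31.4% in the 4-OHT list and 24.998%, 24.976% and 24.971% in the ethanol list, and the last of these holds the olfactory receptor genes Olfr1306, Olfr1307, Olfr1308 and Olfr1309 on chromosome 2.

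Genes named as zinc finger genes stood in 5 of the 10 bins of highest control coverage. Others of the 10 held only predicted or clone symbols (Gm42346, or BC024063 and AU041133), which no list covers, and 1 lay 2.2 kb from Zfp951. The highest bin, from 147400001 to 147500000 on chromosome 4 in Zfp982, was covered at 80.4% in the 4-OHT list and 73.8% in the ethanol list. Its neighbour to 147600000, with Zfp982 and Zfp985, had 75.8% with 4-OHT and 69.8% with ethanol. On the same chromosome, a bin with Zfp990 (from 145500001) had 78.2% in the 4-OHT list and 65.7% in the ethanol list, and one with Zfp992 (from 146400001) had 60.6% with 4-OHT and 57.1% with ethanol. A bin on chromosome 7 with Zfp936 (from 43100001) had 68.7% in the 4-OHT list and 60.6% in the ethanol list. All 5 of these bins were covered more in the 4-OHT list. Of the 10 bins of highest control coverage, 8 were covered more in the 4-OHT list and 2 less. The first of the 2 was over Chil4, a chitinase-like gene, on chromosome 3 from 106200001, at 61.5% in the 4-OHT list and 72.5% in the ethanol list. The second was in Skint5 on chromosome 4 from 113500001, at 43.0% with 4-OHT and 58.3% with ethanol. The bodies of Zfp985 (85.3% in the 4-OHT list, 77.3% in the ethanol list), Zfp982 (77.5% with 4-OHT and 70.4% with ethanol) and Zfp992 (87.7% with 4-OHT and 73.5% with ethanol) were more covered in the 4-OHT list too.

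Heavily covered bins held few genes, and a large part of the genes they held belonged to clustered families. They had 0.706 protein-coding genes per bin, against 1.26 over all bins, and 864 of them had none (65.5%, Wilson interval 62.9 to 68.0%), against 36.3% of all bins. Protein-coding genes took up 15.3% of their bases and 39.98% of the bases of all bins. A lncRNA gene lay in 11.7% of them and in 40.3% of all bins, and a pseudogene in 34.0% and 27.9%. No annotated gene of any type lay in 512 of them (38.8%), against 16.6% of all bins. Among bins without a protein-coding gene, the median distance to the nearest one was 477.5 kb in the heavily covered bins and 194.5 kb over all such bins.

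In all, 796 of 18685 protein-coding genes had a base in a heavily covered bin (4.26%). Of these 796 genes, 589 (74.0%) fell into 21 families found by symbol, against 13.9% of all protein-coding genes. The family genes in the bins had a median length of 1.05 kb, the other 207 genes there 25.1 kb, and all protein-coding genes 17.4 kb. Genes of 300 kb or more were few but present, with 41 of 462 such genes in the bins (8.87%). A gene counts with 1 shared base, so a longer gene meets more bins. Genes of a cluster share bins, so these counts are not of independent genes.

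Receptor genes of smell and pheromone sensing gave the largest numbers. Of 1037 olfactory receptor genes, which encode odorant receptors, 370 lay in the bins (35.7%), with 190 on chromosome 2, 64 on chromosome 7 and 52 on chromosome 9. Their 97 bins were covered at 28.7% in the 4-OHT list and 32.4% in the ethanol list, lower in 65 and higher in 32. Among bins chosen on the mean of both lists 50 were lower and 45 higher (mean difference -0.958 points), and among those chosen on the 4-OHT list 40 were lower and 54 higher (1.02). Olfr1110 on chromosome 2 (87135381 to 87140233) was covered at 59.7% of its body in the 4-OHT list and 75.2% in the ethanol list. Olfr711 on chromosome 7 (106971368 to 106975451) had 30.3% with 4-OHT and 82.3% with ethanol. Of 112 type 2 vomeronasal receptor genes, which encode pheromone receptors, 51 lay in the bins (45.5%). Their 47 bins were covered at 34.8% in both lists, lower in 22 and higher in 25. The named genes of each list are those with the highest ethanol coverage of the body among its genes over 2 kb in the bins, so a lower value in the 4-OHT list is not read. Vmn2r69 on chromosome 7 was at 27.9% of its body in the 4-OHT list and 89.1% in the ethanol list, and Vmn2r14 on chromosome 5 at 48.8% with 4-OHT and 76.7% with ethanol. Of 180 type 1 vomeronasal receptor genes 21 were in the bins (11.7%), among them Vmn1r172 at 0% with 4-OHT and 41.9% with ethanol.

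Zinc finger genes, which encode DNA-binding proteins that often repress retroviral sequence, had 63 of 393 members in the bins (16.03%), over 11 chromosomes. Their 48 bins were covered at 43.2% in the 4-OHT list and 39.0% in the ethanol list, higher in 36 and lower in 12. The mean difference was 4.28 points in these bins, 5.69 among bins chosen on the 4-OHT list and 4.88 among bins chosen on the mean of both lists. Zfp709 on chromosome 8 went the other way, at 71.4% of its body in the 4-OHT list and 91.0% in the ethanol list, as did Zfp110 on chromosome 7 at 76.1% with 4-OHT and 86.4% with ethanol. Of 57 clustered protocadherin genes, which encode neuronal adhesion proteins in overlapping transcription units on chromosome 18, 29 lay in the bins, but in only 4 of them. Those 4 bins had 36.0% in the 4-OHT list and 32.3% in the ethanol list. Pcdhb18 was covered at 56.2% with 4-OHT and 65.2% with ethanol, and Pcdhb20 at 0% with 4-OHT and 53.9% with ethanol.

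Every Skint gene lay in a heavily covered bin (11 of 11, on chromosome 4). Their 20 bins were covered at 38.3% in the 4-OHT list and 37.2% in the ethanol list, higher in 13 and lower in 7. Skint5 was at 44.4% of its body in the 4-OHT list and 40.3% in the ethanol list, and Skint3 at 41.9% with 4-OHT and 40.4% with ethanol. Cathepsin genes, protease genes whose chromosome 13 cluster is active in mouse placenta, had 8 of 21 members in the bins. Their 5 bins averaged 43.5% in the 4-OHT list and 31.2% in the ethanol list and were all higher. Ctsm was at 60.3% of its body with 4-OHT and 47.5% with ethanol, and Cts3 at 46.5% with 4-OHT and 59.2% with ethanol. Detoxification enzymes had 20 of 154 members in the bins, such as Ugt2b5 on chromosome 5 (56.5% in the 4-OHT list and 61.7% in the ethanol list) and Ugt2b38 (19.5% with 4-OHT and 49.5% with ethanol), which encode enzymes that attach glucuronic acid to steroids and drugs. Of Pramel and Oog genes, expressed in the germ line, 5 of 49 were in the bins, with Pramel11 at 71.1% with 4-OHT and 27.8% with ethanol and Pramel26 at 27.1% with 4-OHT and 25.8% with ethanol. Of defensin genes, which encode antimicrobial peptides, 4 of 66 were in the bins. Their bodies averaged 19.3% in the 4-OHT list and 60.6% in the ethanol list, lower in all 4. The bins were chosen on ethanol coverage, so this is not read. Of those over 2 kb, Defb7 was at 46.1% with 4-OHT and 48.4% with ethanol and Defb41 at 30.9% with 4-OHT and 37.4% with ethanol. Of urinary, secretoglobin and lipocalin genes 4 of 75 were in the bins, with Mup5, a major urinary protein gene, at 38.6% with 4-OHT and 28.3% with ethanol and Mup21 at 0% in both.

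Antibody variable segments, which are not protein-coding genes in the annotation, were also frequent. Of 142 V segments 63 lay in the bins (44.4%), and of 63 V segment pseudogenes 35 did (55.6%), all on chromosome 12 and 97 of the 98 named Ighv. Their 12 bins had 34.2% in the 4-OHT list and 31.1% in the ethanol list, higher in 10 and lower in 2.

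Few or no genes of the other families were found in the bins by their symbols, where 4.26% of all protein-coding genes lay. In the shorter lists a count of 0 or 1 is close to that share and is not read as absence. The bins held 1 of 144 keratin and cornified envelope genes (Krtap20-2, a hair keratin-associated protein gene, named after its value was seen), 1 of 28 pregnancy glycoprotein and Ceacam genes (Ceacam11, at 16.8% of its body in the 4-OHT list and 0% in the ethanol list) and 1 of 25 prolactin family genes (Prl2c3, at 0% in both). Within 100 kb of Krtap20-2 the bins held 24 genes with predicted symbols and a median span of 227.5 bp, which no list covers, so the keratin count rests on how genes are named. Predicted symbols made up 86 of the 207 genes outside the families. They held none of 61 serpins, 134 interferon-inducible and Trim genes, 38 class I and II MHC genes, 10 Speer genes, 5 taste receptors, 87 ribosomal protein genes and 28 Hox genes. Killer cell lectin-like receptors had no gene on the 17 autosomes and the immunoglobulin list had 3 protein-coding genes, none in the bins.

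Of a list of 39 muscle genes, 1 was in the bins, Sgcd, a sarcoglycan gene of 1018 kb on chromosome 11. It had 1 of its bins among them and was covered at 17.8% of its body in the 4-OHT list and 13.02% in the ethanol list. Sgcz, a related sarcoglycan gene on chromosome 8 that is not in that list, had 6 of its 12 bins among them and was covered at 22.8% of its body in the 4-OHT list and 25.2% in the ethanol list. None of the 19 genes listed for other cell types of muscle lay in the bins. None of 19 fixed markers of muscle stem cells and other cells lay in the bins, and the bodies of all 19, among them Pax7, Myf5, Myod1, Pecam1 and Ptprc, were at 0% in both lists. Of all protein-coding genes 4.26% lay in the bins, so counts of 0 and 1 in lists of 19 and 39 are not read. The share of all genes with a body at 0% is not given here. A silencing mark does not measure expression, so the cell type label was not tested by it. Setdb1 itself, on chromosome 3, was covered at 0% of its body in the 4-OHT list and 1.15% in the ethanol list, which does not show whether it was cut.

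**Figure D2:**
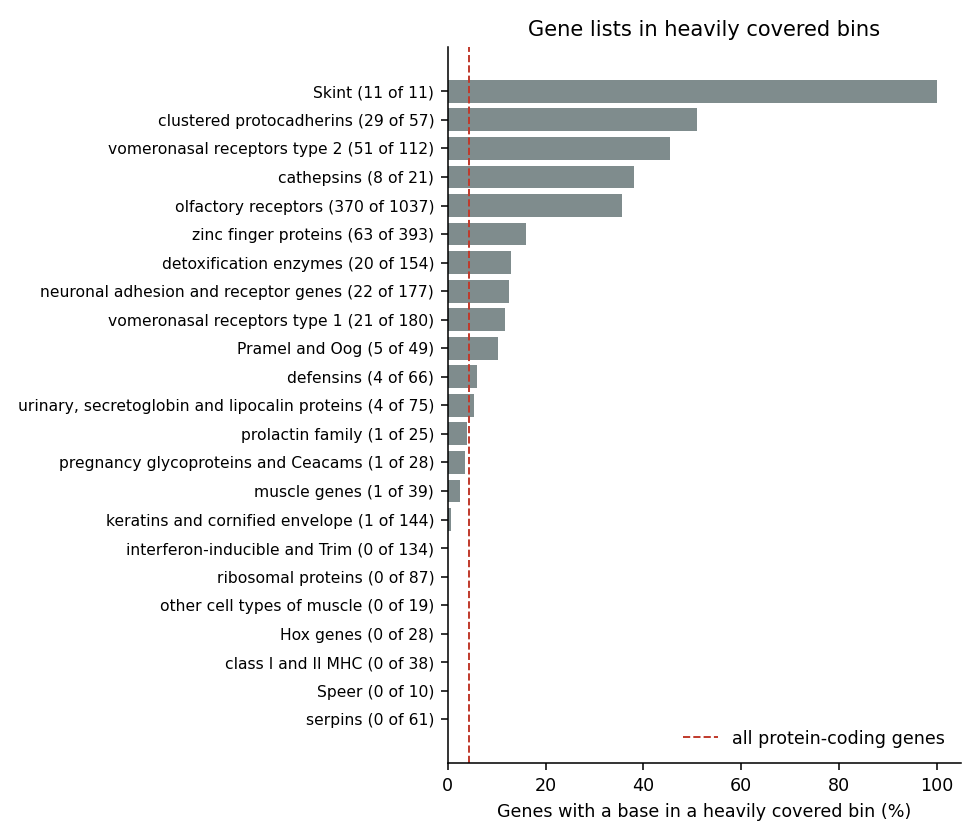
Share of the protein-coding genes of each list that have at least 1 base in a heavily covered bin (horizontal axis, %), for lists of 10 or more genes on the 17 autosomes, with the counts in brackets. The dashed line marks all protein-coding genes (4.26%), and Skint genes (11 of 11), clustered protocadherins, type 2 vomeronasal receptors, cathepsins and olfactory receptors lie farthest to its right.

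Long neuronal genes made up another part. Of 177 neuronal adhesion and receptor genes 22 were in the bins (12.4%). Any 1 shared base counts, so long genes meet more bins. The bodies of all 177 genes averaged 4.85% in the 4-OHT list and 4.40% in the ethanol list. The means over all bins were 5.54% with 4-OHT and 5.28% with ethanol. The 58 bins of these 22 genes had 27.1% with 4-OHT and 31.3% with ethanol, lower in 41 and higher in 17. The direction changed with the choice of bins, with 33 lower and 31 higher (mean difference -1.18 points) among those chosen on the mean of both lists, and 15 lower and 48 higher (4.90) among those chosen on the 4-OHT list. Cdh8 on chromosome 8, a classical cadherin gene, was covered at 27.1% of its body in the 4-OHT list and 31.7% in the ethanol list. Cntnap3 on chromosome 13, of the neurexin superfamily, had 44.3% with 4-OHT and 34.1% with ethanol. The long genes with the most such bins, named after their values were seen, were Lrp1b, a lipoprotein receptor gene of 2058 kb on chromosome 2, with 9, and Agbl4 and Fstl5 with 7 each. The 9 bins of Lrp1b averaged 25.6% in the 4-OHT list and 34.7% in the ethanol list, and all 9 were lower. Over its whole body the coverage was 21.9% in the 4-OHT list and 23.9% in the ethanol list. The 7 of Fstl5, a follistatin-like gene on chromosome 3, had 28.9% with 4-OHT and 36.4% with ethanol and were all lower, and its body had 29.9% with 4-OHT and 37.6% with ethanol. The 7 of Agbl4, a carboxypeptidase gene on chromosome 4, had 36.1% with 4-OHT and 31.2% with ethanol, with 5 higher and 2 lower, and its body had 24.2% with 4-OHT and 19.6% with ethanol. These bins were picked for ethanol coverage, and the bodies include the other bins of each gene.

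By gene content, the bins farthest from genes were lowest in the 4-OHT list relative to the ethanol list. The 411 bins at 500 kb or more from any protein-coding gene had means of 26.6% with 4-OHT and 31.2% with ethanol, lower in 321 and higher in 90. The 864 bins without a protein-coding gene, which include these, had 27.6% with 4-OHT and 31.0% with ethanol. The 252 bins with a family gene had 34.1% with 4-OHT and 34.3% with ethanol, lower in 121 and higher in 131. The 203 with other protein-coding genes only had 29.7% with 4-OHT and 32.1% with ethanol. Under the choice on the mean of both lists the differences were -2.26 points far from genes, -0.890 without a gene, 1.90 with a family gene and 0.908 with other genes only. Bins far from genes were lowest and bins with a family gene highest under both of these choices. Under the choice on the 4-OHT list they stood at 1.15 and 3.45 points, with bins of other genes highest at 4.78. With 1 library per condition the differences between these classes were not tested.

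**Figure D3:**
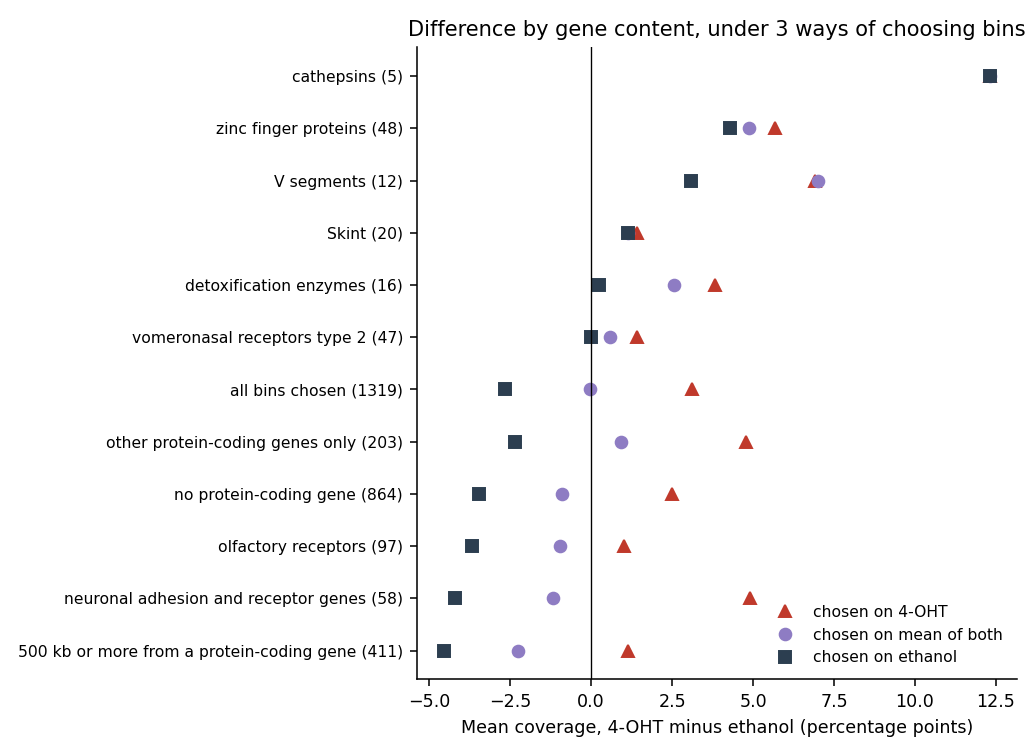
Mean difference in coverage, 4-OHT minus ethanol (horizontal axis, percentage points), for bins grouped by the genes they hold, with the number of bins chosen on the ethanol list in brackets. Symbols mark bins chosen on the 4-OHT list (triangles), the mean of both lists (circles) and the ethanol list (squares), and overlap for cathepsins, where all 3 choices gave the same 5 bins and 12.3 points, while the square for zinc finger genes is at 4.28 and that for bins far from genes at -4.55.

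The differences of single heavily covered bins went from -28.98 to 27.9 points. The 5 largest falls were on different chromosomes. They were at 20.2% in the 4-OHT list and 49.2% in the ethanol list on chromosome 17 (from 77900001, nearest gene Crim1 at 200.2 kb) and at 12.6% with 4-OHT and 41.0% with ethanol in Sgcz, a sarcoglycan gene on chromosome 8 (from 38100001). On chromosome 5 a bin 1267 kb from Pcdh7 (from 59400001) had 9.27% with 4-OHT and 32.6% with ethanol, the lowest 4-OHT value among the 1319. A bin that reaches into Ncam2, a neuronal adhesion gene on chromosome 16 (from 81600001), had 15.9% with 4-OHT and 39.0% with ethanol, and one on chromosome 1 near Cntnap5a (from 116700001) had 23.7% with 4-OHT and 45.4% with ethanol. None of the 5 held a gene of the 21 families, which lay in 252 of the 1319 bins (19.1%).

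Of the 5 largest rises, 3 were at or beside genes of the families, and of these the bin near Skint2 holds no protein-coding gene. Bins with a family gene made up 19.1% of the 1319, and 5 bins are too few to set against that share. The bin of Ctsr and Cts6 on chromosome 13 (from 61100001) had 65.1% in the 4-OHT list and 37.2% in the ethanol list, and the body of Ctsr was covered at 100% with 4-OHT and 33.9% with ethanol. A bin in Agbl4 (from 110500001) had 48.0% with 4-OHT and 25.6% with ethanol. The bin of Ptchd3, a gene of the patched-domain family on chromosome 11 (from 121800001), had 51.9% with 4-OHT and 31.6% with ethanol. A bin 13.6 kb from Skint2 on chromosome 4 (from 112500001) had 46.5% with 4-OHT and 29.1% with ethanol. The bin of Zfp976 and Zfp975 on chromosome 7 (from 42600001) had 57.6% with 4-OHT and 40.8% with ethanol.

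Heavily covered bins stood side by side. Of the 1319, 1043 (79.1%, Wilson interval 76.8 to 81.2%) had at least 1 heavily covered neighbour, in 251 runs of 2 or more bins, and 276 stood alone. Runs of 5 or more numbered 71 and held 585 bins (44.4%), and 18 runs of 10 or more held 256 (19.4%). In the 18 long runs 201 of the 256 bins were at 25% or more in the 4-OHT list too (78.5%), against 155 of the 276 single bins (56.2%). Bins of the long runs also lay farther above the threshold in the ethanol list, at a mean of 33.1%, against 29.9% in single bins, and the part of this was not tested. The mean difference was similar, at -2.31 points in the long runs and -2.75 in single bins. Coverage outside declined with distance from the nearest heavily covered bin. It was 20.4% in the 4-OHT list and 18.1% in the ethanol list for the 871 bins next to one, 8.04% with 4-OHT and 7.26% with ethanol at 3 to 5 bins, and 2.43% with 4-OHT and 2.14% with ethanol beyond 20 bins. Of the 871 adjacent bins 247 reached 25% in the 4-OHT list (28.4%). The rule put these bins under 25% in the ethanol list, so nothing is read from that count.

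The longest run was of 25 bins (2.5 Mb) on chromosome 17, from 18000001 to 20500000. It holds 24 protein-coding genes, 19 of them type 2 vomeronasal receptors, and also Fpr-rs4, Fpr-rs6 and Fpr-rs7, relatives of formyl peptide receptors. The run was covered at 35.5% in the 4-OHT list and 35.8% in the ethanol list, with 13 bins higher and 12 lower. Its bins spanned 15.8% to 53.6% in the 4-OHT list and 26.2% to 52.4% in the ethanol list. Vmn2r124 was at 11.8% of its body in the 4-OHT list and 61.3% in the ethanol list, Vmn2r91 at 39.4% with 4-OHT and 23.5% with ethanol, and Vmn2r92 at 25.7% with 4-OHT and 29.0% with ethanol. The mean of the run was nearly equal in both lists, and these single genes were not.

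The next was the Skint run of 23 bins on chromosome 4, from 111900001 to 114200000, which holds the 11 Skint genes and the end of Slc5a9, a sugar transporter gene with 0% of its body covered in both lists. The run had 39.1% in the 4-OHT list and 36.8% in the ethanol list, with 16 bins higher and 7 lower, and all 23 were at 25% or more in both lists. Skint1 was at 40.3% of its body in the 4-OHT list and 29.5% in the ethanol list, Skint7 at 31.4% with 4-OHT and 21.8% with ethanol, and Skint8 at 16.9% with 4-OHT and 25.3% with ethanol.

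The third, of 21 bins on chromosome 2 from 98100001 to 100200000, holds no protein-coding gene. The nearest are Lrrc4c at 468 kb on its lower side and Iftap at 1361 kb on its upper side. It was covered at 27.7% in the 4-OHT list and 31.9% in the ethanol list, lower in 17 bins and higher in 4. The peak of highest −log10 q in the heavily covered bins lies in it, at 1720 in the 4-OHT list (98666603 to 98667268) and 1505 in the ethanol list (98666335 to 98667177). The authors' fold enrichment was only 1.51 in the 4-OHT list and 1.44 in the ethanol list. Peaks in the bins had medians of 2.57 with 4-OHT and 2.56 with ethanol, so this −log10 q is not read as a stronger mark. The peak is under 1 kb wide and takes up little of its bin.

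The remaining 2 of the 5 longest runs hold genes of the neuronal list. Most of their bins held no protein-coding gene, at 12 of 16 on chromosome 1 and 10 of 16 on chromosome 5. The 16 bins on chromosome 1 from 109300001 to 110900000, with the cadherin genes Cdh7 and Cdh19, had 26.9% in the 4-OHT list and 30.6% in the ethanol list, lower in 13 and higher in 3. The bodies of Cdh7 (29.7% with 4-OHT and 27.7% with ethanol) and Cdh19 (27.9% with 4-OHT and 25.6% with ethanol) were slightly higher in the 4-OHT list. The 16 bins on chromosome 5 from 70000001 to 71600000, with the GABA-A receptor genes Gabrg1, Gabra2 and Gabra4 and with Cox7b2, a cytochrome c oxidase subunit gene, had 28.0% with 4-OHT and 30.5% with ethanol, lower in 11 and higher in 5. Gabra4 was at 32.7% of its body in the 4-OHT list and 21.9% in the ethanol list, Gabra2 at 27.0% with 4-OHT and 31.4% with ethanol, Gabrg1 at 25.4% with 4-OHT and 26.8% with ethanol, and Cox7b2 at 22.5% with 4-OHT and 30.5% with ethanol.

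**Figure D4:**
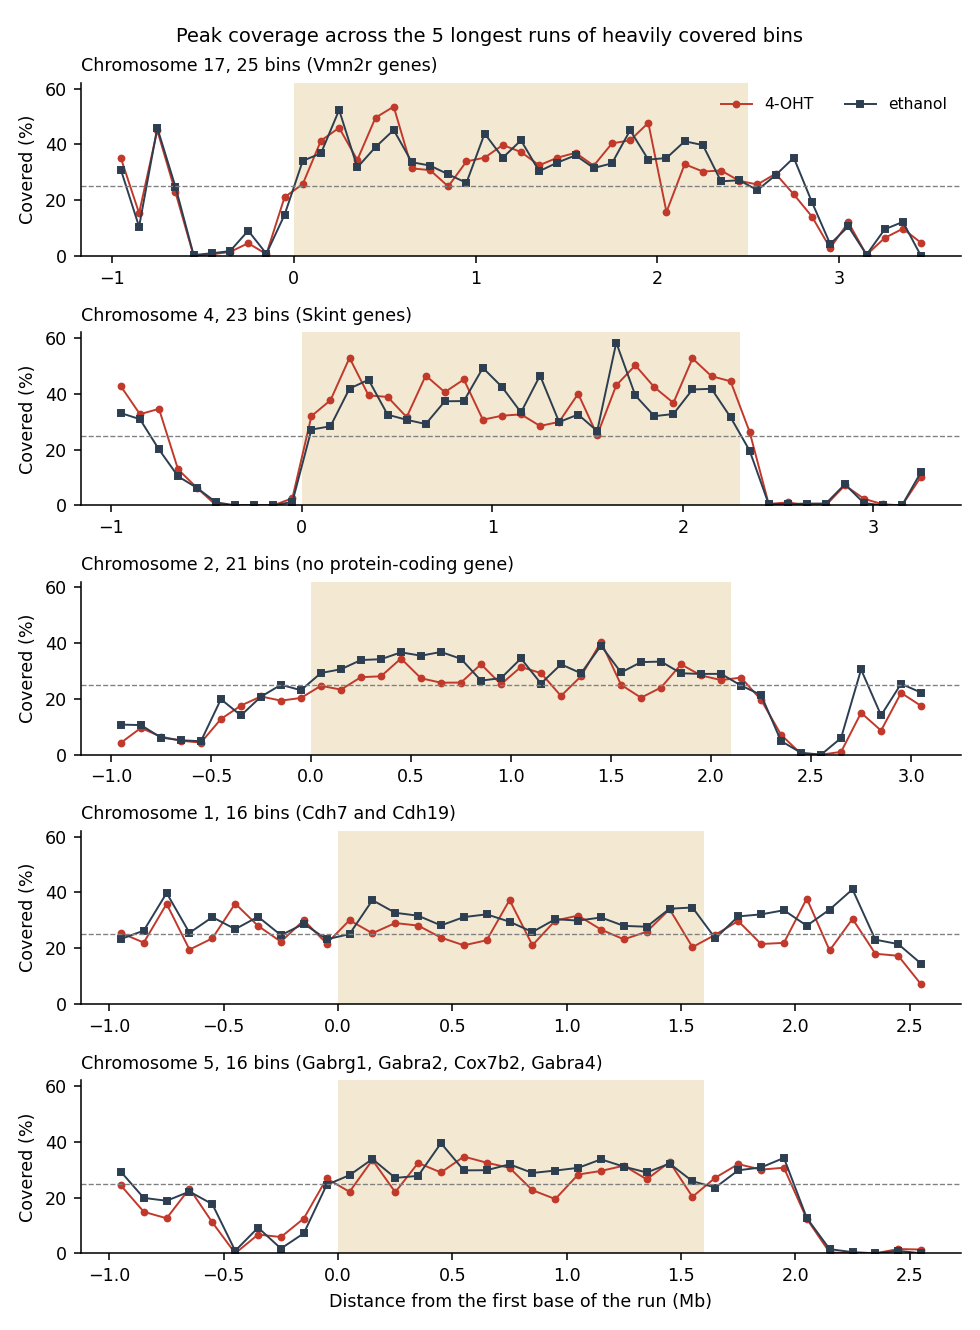
Peak coverage of each 100 kb bin (vertical axis, %) across the 5 longest runs and the 10 bins on either side, by distance from the first base of the run (horizontal axis, Mb), in the 4-OHT list (red circles) and the ethanol list (dark squares). Shading marks the run and the dashed line 25%, and the Vmn2r and Skint runs average 35.5% and 39.1% in the 4-OHT list, against 35.8% and 36.8% in the ethanol list, while the other 3 lie lower in the 4-OHT list.

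Among the 18 runs of 10 or more bins, 14 were lower in the 4-OHT list and 4 higher, counts that share the ethanol side with the rule. Their mean differences went from -8.04 points, over 11 bins on chromosome 5 with Epha5, an ephrin receptor gene, to 8.56 points. The highest was the run of 14 bins on chromosome 13 from 61000001 to 62400000, with the cathepsin genes and Zfp808, where all 14 bins were higher, at 41.4% in the 4-OHT list and 32.8% in the ethanol list. The other 3 runs that were higher were the Skint run, a run on chromosome 17 from 38000001 with olfactory receptor genes and Esp pheromone peptide genes (35.4% with 4-OHT and 34.7% with ethanol), and one on chromosome 4 from 89900001 with Zfp352 (34.2% with 4-OHT and 33.8% with ethanol). Of the 18 runs 9 held no protein-coding gene, and all 9 were lower in the 4-OHT list.

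The bins were unevenly spread over chromosomes. They made up 13.6% of the bins of chromosome 17 (129 of 949) and 0.977% of chromosome 19 (6 of 614), with 172 on chromosome 1. In the 4-OHT list 13.9% of the bins of chromosome 17 and 1.79% of chromosome 19 were at 25% or more. Mean differences of the bins by chromosome, again with the ethanol side set by the rule, ran from -5.06 points on chromosome 9 to 1.51 on chromosome 4, and were positive on chromosomes 4, 7, 10 and 13. Chromosome 4, with Skint and Zfp clusters, had 35.9% in the 4-OHT list and 34.4% in the ethanol list, and chromosome 9 had 26.7% with 4-OHT and 31.8% with ethanol.

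Peaks in the bins were wider than elsewhere, with a similar fold enrichment. The rule chose the bins by bases under ethanol peaks, so wider ethanol peaks and more ethanol-covered bases there are no finding. Peaks with midpoints there made up 24.8% of the 4-OHT list and 26.5% of the ethanol list on these autosomes, and they held 31.7% of the covered bases with 4-OHT and 36.4% with ethanol. A bin held 19 peaks at the median in each list. Median peak width was 1092 bp in the 4-OHT list and 1236 bp in the ethanol list, against 806 bp (4-OHT) and 814 bp (ethanol) in other bins. The authors' fold enrichment had medians of 2.57 in the bins and 2.60 elsewhere in the 4-OHT list, and of 2.56 and 2.57 in the ethanol list, each read within its own list. The share of peaks at −log10 q of 2 or more was 10.96% in the 4-OHT list and 18.9% in the ethanol list, against 12.1% with 4-OHT and 18.7% with ethanol elsewhere. The widest were over zinc finger genes, at 34919 bp in Zfp936 in the 4-OHT list and 29297 bp over Zfp981 and Zfp993 in the ethanol list.

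Peaks of the 2 lists met more often in the bins than elsewhere, but shared under 50% of their bases. In the bins, 67.2% of the 4-OHT peaks (Wilson interval 66.6 to 67.8%) overlapped an ethanol peak by at least 1 bp, and 66.5% of the ethanol peaks (65.9 to 67.1%) overlapped a 4-OHT peak. Elsewhere the shares were 45.1% with 4-OHT and 50.2% with ethanol. Peaks in the bins were wider and denser, and the part of this in the shares was not tested. By bases, 4-OHT peaks covered 43.3% of the ethanol-peak bases in the bins, where they covered 29.1% of all bases. Elsewhere they covered 36.6% of the ethanol-peak bases, where they covered 4.03% of all bases. Sharing by bases was thus closer to plain coverage in the bins than elsewhere.

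Most promoters in the bins were poor in CG, and those rich in CG were rarely covered. The RefSeq table of promoters (250 bases before to 50 after a start) matched 655 of the 796 genes, and 630 windows of 600 genes lay in the bins. The motif searched was CG, which reads the same on both strands. The 630 windows had a median of 1 CG and 36.3% G and C, against 14 and 57.0% over all 18057 windows, and 71.6% of them held at least 1 CG, against 95.8% of all. A base under a peak was found in 176 of the 630 windows in the 4-OHT list (27.9%, all promoters 1.99%) and in 189 in the ethanol list (30%, all promoters 1.86%), with 71 in both. The rule chose bins dense in ethanol peaks, so the second count is no finding.

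Within the bins, the share under a peak differed by CG content, which the rule did not use. With 0 or 1 CG, 30.2% of 367 windows had a base under a peak in the 4-OHT list and 35.1% in the ethanol list. With 5 to 9 CG it was 24.5% of 49 with 4-OHT and 16.3% with ethanol. With 10 or more CG, a limit set after seeing the data, it was 2 of 51 in the 4-OHT list and 0 of 51 in the ethanol list, which allows a share of up to 5.88% by counting error. The 51 windows belong to 46 genes, and 25 of the windows to zinc finger genes. The 2 were the outer Zfp982 window, at 7.33% of its 300 bases, and one of Mgat4c, a glycosyltransferase gene on chromosome 10. Outside the bins 0 of 10548 such windows had a peak in either list. Coverage of sequence rich in G and C by the libraries was not given in the files, and its part was not tested.

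**Figure D5:**
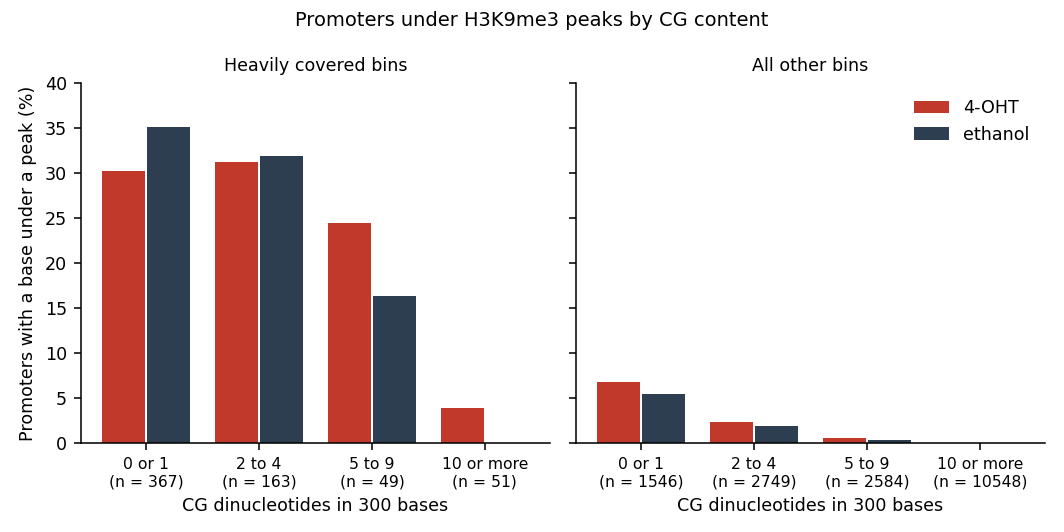
Share of RefSeq promoter windows of 300 bases with at least 1 base under a peak (vertical axis, %), by the number of CG dinucleotides (horizontal axis), in heavily covered bins (left) and all other bins (right), for the 4-OHT list (red) and the ethanol list (dark). In the left panel the bars stand at 30.2% with 4-OHT and 35.1% with ethanol for 0 or 1 CG and at 3.92% with 4-OHT and 0% with ethanol for 10 or more.

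By family, 24 of 48 type 2 vomeronasal receptor windows in the bins had a base under a peak in the 4-OHT list and 25 in the ethanol list, at a median of 1 CG. For olfactory receptors it was 83 of 305 with 4-OHT and 102 with ethanol, also at 1 CG. For zinc finger genes it was 9 of 57 in each list, at a median of 8 CG, while their bins averaged 43.2% in the 4-OHT list and 39.0% in the ethanol list. The 5 windows of neuronal genes, at a median of 18 CG, had none in either list.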

How the data were processed

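H3K9me3 was mapped by native chromatin immunoprecipitation after micrococcal nuclease digestion, with 8 µg of chromatin, per the labels' protocols. The submitters' processing notes name the mm10 build, MACS2 for peaks, ChIPseeker 1.30.3 and BWA 0.7.17-r1188. MACS2 settings, use of the input libraries and pooling are not given in the sources used here. Input libraries were not used here. The deposited broad peak lists give for each peak a fold enrichment (a linear ratio), −log10 p, −log10 q and a score, which is 10 times −log10 q cut to a whole number in all but 3 peaks of the 4-OHT list and 5 of the ethanol list. The 4-OHT list holds 113688 peaks and the ethanol list 105864, and 100807 of the 4-OHT peaks and 92574 of the ethanol peaks lie on the 17 autosomes. How deeply each library was sequenced is unknown, and unequal depth cannot be told apart from unequal mark. File names carry another replicate number than the labels, so lists were assigned by condition.

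Peak intervals were merged and the covered share of each bin computed with Python 3.11.15, pandas 2.3.3, numpy 2.4.6 and scipy 1.17.1, and drawn with matplotlib 3.10.9. The calculation was checked on simulated data. Genes came from RefSeq (GRCm38.p6, with the same chromosome sequences as mm10) and count in a bin with 1 shared base. The table gives no exons. Repeats were not analysed here. The bins and gene lists were chosen with earlier results of these data known, and the classes by gene content, the CG bands and the choice on the mean of both lists after seeing values. Named regions were the 10 bins of highest control coverage, the 5 largest falls and rises, the 5 longest runs and the 3 bins on either side of the threshold. Named genes were up to 4 in each region and the 2 most covered of over 2 kb in each list, and a few others were added after seeing values.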

Additional observations from a re-analysis of the deposited data

Results flagged for a closer look

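Chromosome X, which was outside the bins compared, had 3 bins of 100 kb at 25% or more in the 4-OHT list and 0 in the ethanol list, out of 1710. Chromosome X is listed because a signal in data left out of the comparison was above that in the control. A larger difference went the other way on chromosome 6, also left out, with 38 of 1497 bins in the 4-OHT list and 284 in the ethanol list. Chromosome 14 had 0 of 1249 in both lists. With 1 library per condition these differences were not tested, and outlying samples could not be looked for.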

How the results depend on the processing

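Of 78 values recomputed under 12 alternative settings, 40 kept their direction and moved little, 37 moved and 1 reversed, and the causes were not tested. Some of the 40 could not move. Taking the same number of peaks left the ethanol list whole, which fixed its bin count, share in runs, genes per bin and family share. Joining peaks within 1 kb left these values unchanged too. The limit for moving little was wide, and 1603 bins with chromosomes 6 and 14 and a difference of -3.99 points at 30% met it. The number of heavily covered bins was 2058 at a threshold of 20%, 692 at 30%, 2712 with bins of 50 kb, 633 with bins of 200 kb, 41 with peaks at −log10 q of 2 or more, and 174 with peaks at or above the median fold. The mean difference, 4-OHT minus ethanol, of -2.68 points was -1.48 at 20%, -4.11 with 50 kb bins, -4.28 at the median fold, -5.53 with chromosomes 6 and 14 included and -0.0263 for bins chosen on the mean of both lists, and it reversed to 2.07 among the 41 bins of the q filter. On chromosome 6, 38 bins were at 25% or more in the 4-OHT list and 284 in the ethanol list. Chromosome 14 had 0 in both, so all bins added with chromosomes 6 and 14 were on chromosome 6. The difference of bins chosen on the 4-OHT list (3.10) was 2.03 at 20%, 4.94 at 30%, 4.86 with 50 kb bins, 6.85 with the q filter and 10.1 at the median fold. The share of bins also at the threshold in the 4-OHT list was 67.7%. With the threshold changed in both lists alike, it was 81.9% at 20% and 51.7% at 30%. At 25% it was 63.1% with 50 kb bins, 71.1% with 200 kb bins, 78.0% with the q filter and 49.4% at the median fold. It was 58.1% with chromosomes 6 and 14, 61.3% with the same number of peaks in both lists and 82.6% for the mean of both. The share in runs (79.1%) was 87.3% at 20%, 64.3% at 30%, 82.6% with 200 kb bins, 46.3% with the q filter, 30.5% at the median fold and 81.9% with chromosomes 6 and 14. Protein-coding genes per bin (0.706) numbered 0.437 with 50 kb bins, 1.23 with 200 kb bins, 1.93 with the q filter and 1.17 at the median fold. All 100 kb bins held 1.26 on average, so the bins of the q filter held more genes than the average bin. That value was counted as moved, not as reversed. The share of genes in families (74.0%) was 63.4% with the q filter and 77.8% with genes placed by midpoint.

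No paired analysis was possible because each condition had 1 library; leaving out a replicate was not possible either. Depth was not given, so a weaker library and less mark cannot be told apart. Most peaks were near the lowest −log10 q listed, with medians of 1.51 in the 4-OHT list and 1.63 in the ethanol list within the bins.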
